A study of Komagataella phaffii with 72 samples.

Results

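The 100 genes described here are those whose mRNA level differed most between repeat cultures of the same GS115 clone. They were chosen from log2(TPM + 1) values, where TPM is a transcript's share of the library on a common scale, corrected for length, in the 18 GS115 libraries. A gene had to reach a GS115 mean of 4 or more, which 3896 of the 5120 genes in the tables did. The variance of the 3 cultures of a clone was averaged over the 6 GS115 clones, and the 100 genes with the highest average were taken. This choice used the GS115 values, so the members' spread in GS115 is given as a description with no test.

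The 72 libraries are 3′ digital gene expression libraries of Komagataella phaffii, a methylotrophic yeast used to secrete recombinant proteins and long known as Pichia pastoris. Each of 4 host strains (GS115, NRRL Y-11430, NRRL Y-48124 and X-33, the middle pair given below without NRRL) had 3 transformed clones making rhGH, human growth hormone, and 3 making rG-CSF, a granulocyte colony-stimulating factor, with 3 cultures (A, B and C) per clone. Every clone carried its transgene on the pPICZA vector under the methanol-induced AOX1 promoter, and every culture was sampled after 24 h in 4% glycerol and 24 h more in 1.5% methanol. GS115 is a histidine auxotroph obtained by mutagenesis of Y-11430. The study lists X-33 and Y-48124 as revertants of GS115, but found a substitution in HIS4 in both and slowed growth without histidine. The cultures were grown in wells of deep-well plates from frozen stocks. The labels do not say whether the 3 cultures of a clone shared a plate or a day, so the spread between them holds biological and technical differences together. A clone is 1 transformant. P-values below measure only the spread between these samples.

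On methanol this yeast makes large amounts of a few enzymes of methanol oxidation, with AOX1 as the best known, while genes for nutrient uptake and the cell surface respond to growth state. Cell surface genes of yeasts include the flocculins, large mannoproteins of the outer wall that hold cells to each other and to surfaces. In Saccharomyces cerevisiae the flocculin FLO11 is needed for adhesion and filamentous growth, and its expression is known to differ between genetically identical cells. The identifiers of the tables are GQ67 locus tags. Of the 100 members, 1 has a symbol in the study, FLO11-BSC1, and the others are known only by their identifiers. Of those, 4 are given below, chosen by rank and by the sign of their correlation with the highest-ranked member.

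In GS115, 3 cultures were far from their own clone over genes that are not members, and they bear on everything that follows. Over 3425 genes outside the members, the culture labelled rhGH 12A was nearest to rhGH 13A, with a root mean square difference of 0.20 on the log2 scale, against 0.57 to 0.59 from the other cultures of clone 12. The culture labelled rhGH 14C was nearest to rhGH 12C, at 0.40, against 0.58 to 0.62 from its own clone. The culture labelled rG-CSF 13A was nearest to rG-CSF 12B, at 0.32, against 0.55 to 0.57 from its own clone. The other 15 GS115 cultures were nearest to a culture of their own clone.

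The marker gene of the vector followed the labels in clones rhGH 12 and rG-CSF 13. Its log2(TPM + 1) was 7.10 in rhGH 12A, beside 7.28 and 7.18 in rhGH 12B and 12C, while the cultures of rhGH 13 had 5.93, 6.10 and 5.74. It was 7.13 in rG-CSF 13A, beside 6.59 and 6.83 in rG-CSF 13B and 13C, while the cultures of rG-CSF 12 had 5.51, 5.94 and 5.81. In rhGH 14 it was 5.69, 5.50 and 5.997 in cultures A, B and C. That range overlaps rhGH 13 and is below rhGH 12. Total counts of the far cultures were 2743121 in rhGH 12A, 1427933 in rhGH 14C and 1423848 in rG-CSF 13A, and the last of these is the lowest total in GS115.

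In the other strains, the same check placed 19 of the 54 libraries nearest to another clone, all 19 of them rhGH libraries. The culture labelled X-33 rhGH 12A also stood apart in its transgenes. Its marker was at 8.88 and its rhGH transgene at 12.84, against 6.49 and 6.28 for the marker and 10.79 and 10.99 for rhGH in cultures B and C. Without it the members' median variance in X-33 was 0.113, against 0.150 with it.

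The choice of members rested largely on these cultures. When the rule was applied without the libraries labelled rhGH 12A, rhGH 14C and rG-CSF 13A, 40 of the 100 members were chosen again. The members' median variance was then 0.162, against 0.0368 over all ranked genes, and 69 members were above the 90th percentile. GS115 library totals were otherwise between 1423848 and 5996828, with 33003281 in rG-CSF 14A, and the other 3 strains had 386665 to 2365481. The rule applied without rG-CSF 14A kept 98 members.

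The average variance of a member was between 0.458 and 4.67, with a median of 0.598, against a median of 0.0727 over all ranked genes. A variance of 0.598 is a standard deviation of 0.77 on the log2 scale. The members at ranks 99 and 100 had 0.461 and 0.458, and the genes at ranks 101 and 102 had 0.458 and 0.456, so the edge of the set is not a gap. The counting variance that each gene's mean count would give was exceeded more than 10 times by 96 of the 100 members and at least 3.60 times by all of them. The median ratio was 78.1 in the members and 8.52 in all ranked genes. By their median level the members as a whole were not the weakly expressed genes of the list, but several at its head were. A GS115 library at 0 counts was found in 6 members, against 0.154% of ranked genes. They were ranks 1, 4, 7, 8, 9 and 10, with GS115 means of 4.08 to 4.81. The median GS115 mean of all members was 6.26, against 5.997 for the ranked genes, and 22 members had a mean under 5, while 25.1% of ranked genes did.

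Most of the spread of the members sat in 3 of the 6 clones. Clones rhGH 12 and rhGH 14 held 26.4% and 28.5% of the members' summed variance and rG-CSF 13 held 20.4%, while rhGH 13, rG-CSF 12 and rG-CSF 14 held 8.63%, 11.2% and 4.86%. The median standard deviation of the 100 members was 1.08 in rhGH 12, 0.99 in rhGH 14 and 0.75 in rG-CSF 13. In rhGH 13, rG-CSF 12 and rG-CSF 14 it was 0.34, 0.49 and 0.38. In each of the widely spread clones 1 culture stood against the others. For 88 of the 100 members, rhGH 12A was the culture farthest from its clone's median, and rhGH 14C was the farthest for 87 and rG-CSF 13A for 82. One culture was also the farthest for most members in the narrower clones, with 69 for rhGH 13C, 68 for rG-CSF 12A and 71 for rG-CSF 14C. These counts come from the values that chose the members, and the share over other genes is not given here. They are not read as a trait of the members, since rhGH 12A, rhGH 14C and rG-CSF 13A were also far from their clone over 3425 genes outside them. A single clone gave more than 50% of the variance in 34 members.

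**Figure D1:**
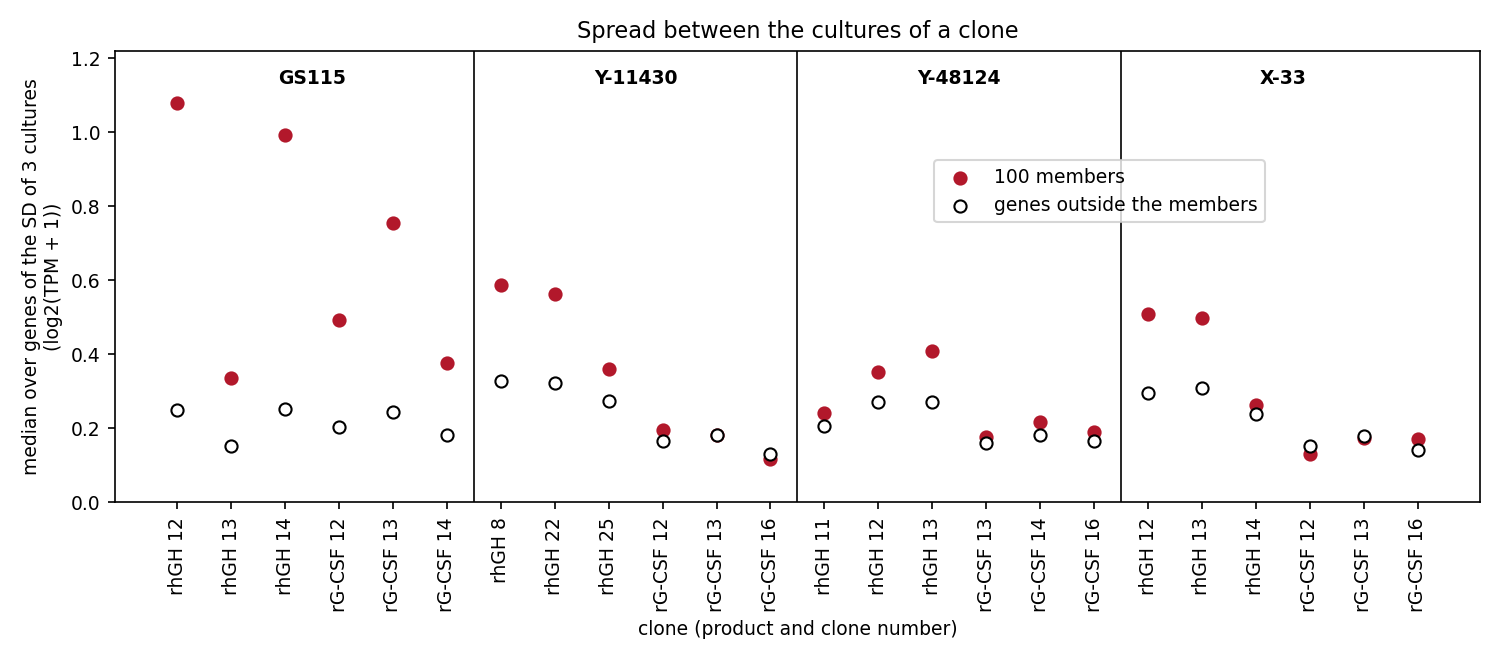
Median over genes of the standard deviation of the 3 cultures, in log2(TPM + 1), for each of the 24 clones. Filled points are the 100 members and open points the genes outside them. The members are at 1.08, 0.99 and 0.75 in GS115 rhGH 12, rhGH 14 and rG-CSF 13, and at 0.59 or lower in every clone of the other strains.

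The members moved as 2 opposed sets. The first component of their clone-centred values, that is each value minus the mean of its clone, held 58.2% of the variance in GS115, and the second component held 15.9%. On the first component 66 members had one sign and 34 the other, and these are called the first set and the second set. The correlation with the component was above 0.5 in 54 members of the first set and below -0.5 in 25 of the second set, over 18 libraries, and 21 members followed it less closely. Since the component was computed from the same values, this is a description of the members.

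**Figure D2:**
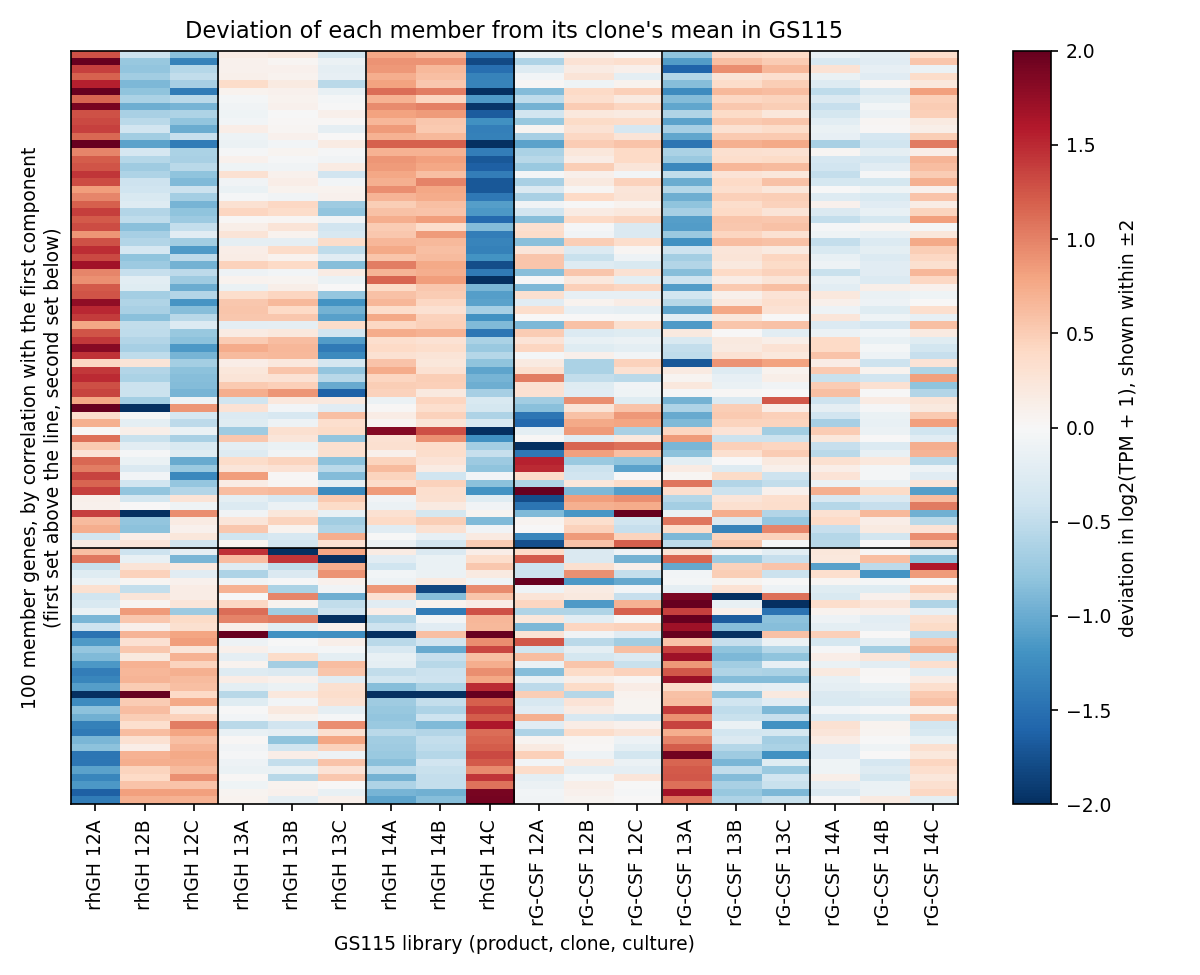
Deviation of each of the 100 members (rows) from its clone's mean in the 18 GS115 libraries (columns), in log2(TPM + 1), with the 66 genes of the first set above the line and the 34 of the second set below. Red is above and blue below the clone's mean. Most of the first set is red in rhGH 12A and blue in rhGH 14C and rG-CSF 13A, and most of the second set is the reverse.

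A score, the mean log2(TPM + 1) of the first set minus that of the second, gives the position of each library. In clone rhGH 12 it was 1.70 in culture A and -1.33 and -1.36 in cultures B and C. In rhGH 14 it was 1.60 and 1.50 in cultures A and B and -1.76 in culture C. In rG-CSF 13 it was -0.60 in culture A and 2.01 and 1.88 in cultures B and C. These 3 clones had cultures on both sides of 0.

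The other 3 GS115 clones stayed on 1 side. The score was 1.79, 2.11 and 1.48 in the cultures of rhGH 13. It was -1.22, -0.67 and -0.65 in rG-CSF 12 and -0.42, -0.37 and -0.31 in rG-CSF 14. No GS115 culture lay between -0.31 and 1.48. Over all GS115 cultures 10 had a score below 0, and 0 of the 54 libraries of the other strains did. The genes of the score were chosen and signed by their GS115 values, so a wider range in GS115 is what the choice favours. No test is given for it, and a score of 0 only marks equal means of the sets.

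In rhGH 12, rhGH 14 and rG-CSF 13 the means of both sets differed between cultures. The sets were split by sign from these same values, so opposite directions are what the split favours. The means are given as a description. The mean of the first set was 7.56 in rhGH 12A and 5.85 and 5.79 in rhGH 12B and 12C, and that of the second set was 5.85 against 7.18 and 7.15. In rhGH 14 the first set had 7.44, 7.39 and 5.79 in cultures A, B and C, and the second set had 5.84, 5.88 and 7.54. In rG-CSF 13 the first set had 6.37, 7.23 and 7.24, and the second set had 6.97, 5.22 and 5.36. The second set differed more than the first in rG-CSF 13, and the first set differed more in rhGH 12.

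**Figure D3:**
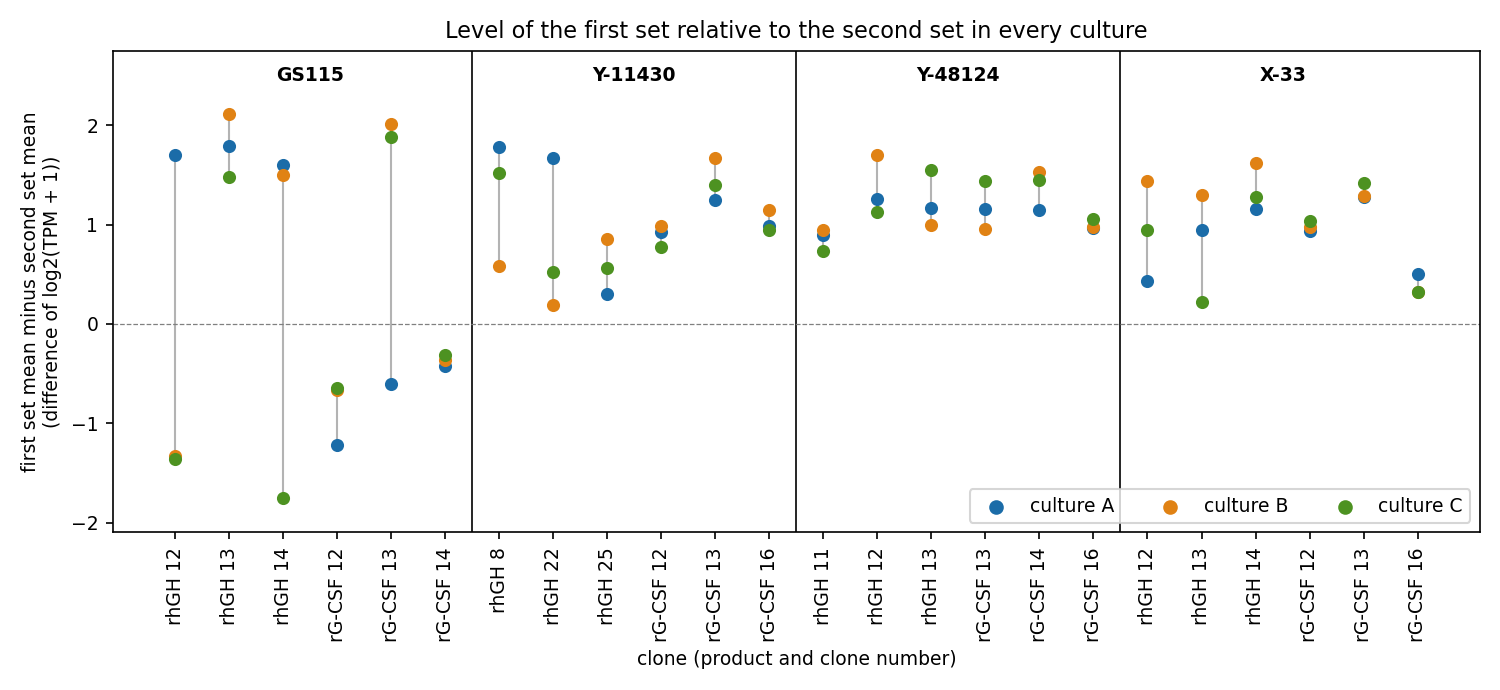
Mean log2(TPM + 1) of the first set minus that of the second set in each of the 72 cultures, by clone, with 1 point per culture and a line over the range of a clone. GS115 cultures run from -1.76 to 2.11 with none between -0.31 and 1.48, and the cultures of the other strains run from 0.19 to 1.78. Both sets were chosen by GS115 values, which favours a wider range in GS115.

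The product transgenes also differed between cultures of a clone. The rhGH transgene was at 13.72 in rhGH 12A and at 13.20 and 13.07 in 12B and 12C, and at 12.45, 12.94 and 12.47 in the cultures of rhGH 14. The rG-CSF transgene was at 13.09 in rG-CSF 13A and at 14.06 and 14.14 in 13B and 13C. In the clones whose cultures stayed on 1 side of 0 it was at 10.49, 12.49 and 12.50 in rG-CSF 12 and at 9.17, 9.65 and 10.72 in rG-CSF 14. The rhGH transgene was at 12.45, 12.68 and 13.38 in the cultures of rhGH 13.

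FLO11-BSC1, which the study names after the S. cerevisiae flocculin FLO11 and its relative BSC1, ranked 23rd with a variance of 0.854 and belonged to the second set. Its log2(TPM + 1) was 3.65, 5.75 and 5.74 in cultures A, B and C of rhGH 12 and 3.56, 3.76 and 6.52 in those of rhGH 14. In rG-CSF 13 it was 4.77, 3.08 and 3.27. The cultures of rhGH 13 had 3.79, 3.54 and 3.81, those of rG-CSF 12 had 5.09, 5.23 and 5.17, and those of rG-CSF 14 had 5.37, 5.54 and 5.17. The gene was low in the 8 cultures with a high score and high in the 10 others, with no overlap. Behind these values are 70 to 255 counts in the low cultures and 218 to 9243 in the high ones. Its correlation with the first component was -0.98 over 18 libraries. Without the 3 far cultures its variance was 0.0167.

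In the other strains FLO11-BSC1 covered a narrower range. It ran from 3.67 to 5.53 in Y-11430, from 3.76 to 5.05 in Y-48124 and from 3.90 to 5.76 in X-33, over 18 libraries each. Its variance between cultures was 0.139, 0.109 and 0.214 there. Its mean level did not pass the test between GS115 and the other strains (log2 difference -0.14 ± 0.26, standard error, adjusted p = 0.627, edgeR quasi-likelihood test on 24 clones), nor between the products in the other 3 strains (log2 difference -0.35 ± 0.26, adjusted p = 0.382). Within the other 3 strains it differed between clones of 1 strain and product (adjusted p = 4.06e-04).

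The member of rank 1, GQ67_05122, had a variance of 4.67 and belonged to the second set. It was at 6.09 and 6.21 in rhGH 12B and 12C and 3.94 in 12A, and at 6.77 in rhGH 14C, 4.28 in 14B and 0.00 in 14A. In rG-CSF 13 it was at 6.20 in culture A, 0.00 in culture B and 3.99 in culture C. The gene had 0 counts in rhGH 13B, rhGH 13C, rhGH 14A and rG-CSF 13B, where a count of 0 allows up to 3 counts. Other cultures of those clones had 19 to 89 counts. Values in rG-CSF 12 and rG-CSF 14 were between 5.78 and 7.10. Over all strains 48 of the 72 libraries had 0 counts, and the highest value outside GS115 was 4.35, in Y-11430. No fold is given for this gene, since whole groups of libraries are at 0.

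GQ67_01284, the second in rank, had a variance of 3.27 and also belonged to the second set. It was at 3.06, 7.67 and 5.95 in the cultures of rhGH 12 and at 2.35, 2.24 and 8.54 in those of rhGH 14. In rG-CSF 13 the cultures had 4.61, 3.23 and 4.22, a smaller difference. The other strains ran from 0 to 4.17 in log2(TPM + 1), with the highest median, 1.53, in X-33, against a GS115 median of 5.28. The rule asked for a GS115 mean of 4 and for nothing in the other strains, so a higher GS115 level of a gene that is this low elsewhere is fixed by the choice and is given without a test.

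GQ67_01636 and GQ67_03944, of ranks 3 and 5, belonged to the first set. GQ67_01636 was at 10.01, 6.46 and 6.15 in the cultures of rhGH 12, at 9.39, 9.39 and 5.81 in those of rhGH 14 and at 8.94, 11.10 and 11.14 in those of rG-CSF 13. GQ67_03944 was at 8.77, 5.76 and 5.18, at 8.81, 8.71 and 5.56, and at 7.08, 8.998 and 8.97 in the same order. Both were high where FLO11-BSC1 was low. In Y-48124 GQ67_01636 stayed between 8.09 and 8.85 and GQ67_03944 between 7.08 and 8.26, with variances of 0.0117 and 0.0318. Neither level passed the test between GS115 and the other strains (log2 difference 0.27 ± 0.41, adjusted p = 0.564, and -0.61 ± 0.28, adjusted p = 0.0598).

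**Figure D4:**
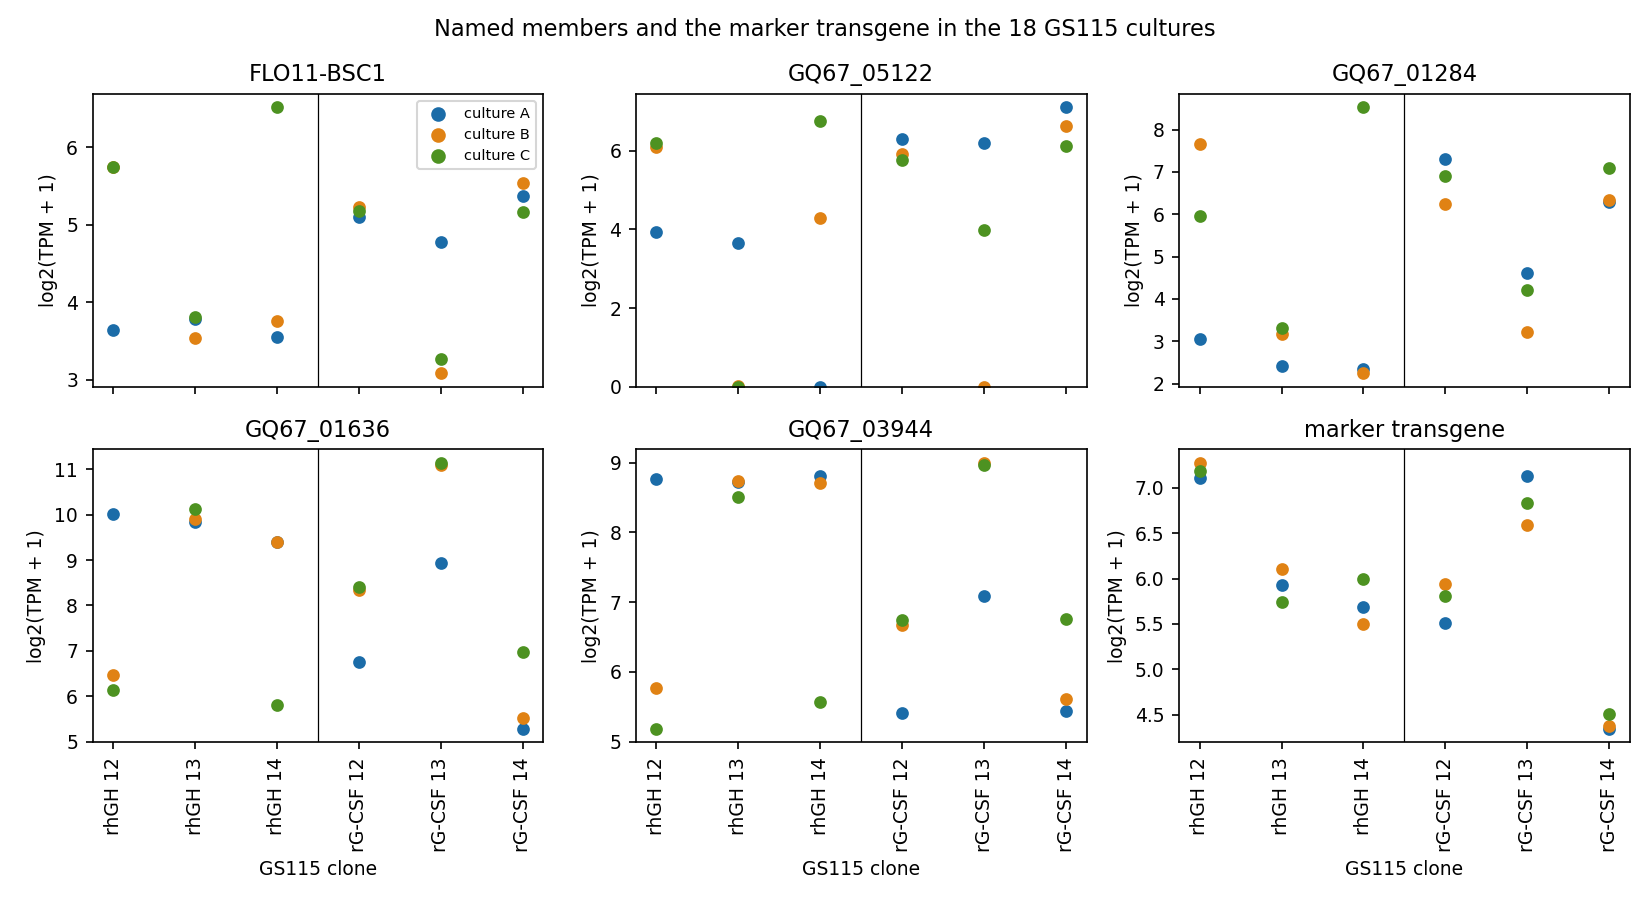
Log2(TPM + 1) of 5 named members and of the marker transgene in the 18 GS115 cultures, with 1 point per culture and rhGH clones on the left of each panel. The second-set members FLO11-BSC1, GQ67_05122 and GQ67_01284 are high where the first-set members GQ67_01636 and GQ67_03944 are low, while the marker is at 7.10, 7.28 and 7.18 in the cultures of rhGH 12.

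Many genes that are not members also followed the score in GS115. Of the 3796 ranked genes outside the members, 1463 (38.5%) had a correlation above 0.5 with the score and 592 (15.6%) had one below -0.5, over the same 18 clone-centred libraries. Over the 15 libraries without the far cultures, 325 and 339 genes did. Without those cultures 24 of the 66 genes of the first set had a correlation above 0.5 with the score from the other members, and 6 of the 34 genes of the second set had one below -0.5. Within clones the sets were then not opposed. The first set had a median correlation of 0.39 and the second set one of 0.08.

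In the other 3 strains the same measure was smaller in most members. The members' median variance was 0.211 in Y-11430, 0.102 in Y-48124 and 0.150 in X-33, against 0.598 in GS115. Over all genes with a mean of 4 or more in the strain the medians were 0.0865, 0.0619 and 0.0724. The variance was higher in GS115 than in Y-11430 for 84 of the 100 members, than in Y-48124 for 85 and than in X-33 for 81. The GS115 variance chose the members, so a lower value elsewhere is what the rule favours and is given without a test. Of the 100 genes with the highest variance in each of these strains, 9 in Y-11430, 5 in Y-48124 and 9 in X-33 were members. A member needed a mean of 4 in the strain to be counted there, and 16 members had it in none of the 3. Members were 83 of the 3596 genes with such a mean in Y-11430, 79 of 3424 in Y-48124 and 80 of 3522 in X-33. The median percentile of these members by variance was 78.3, 56.5 and 68.6, and 29, 14 and 21 of them were above the 90th percentile.

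**Figure D5:**
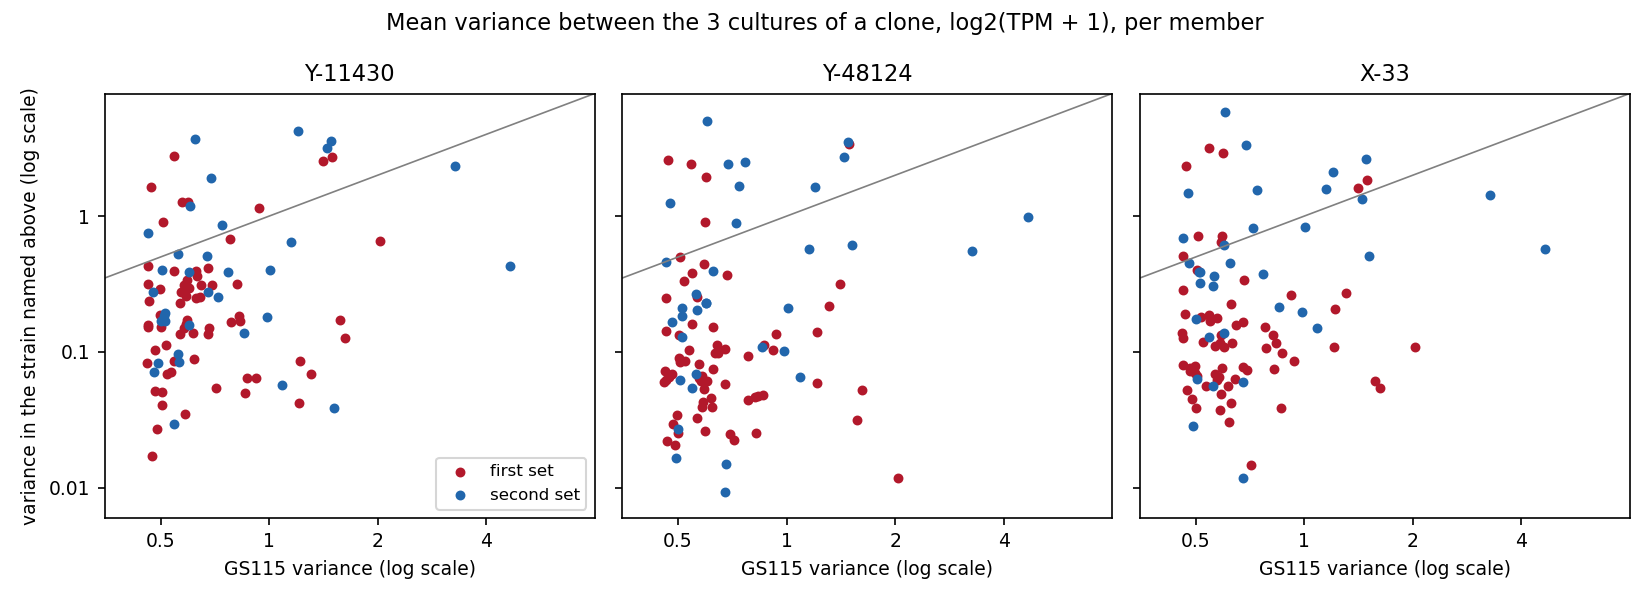
Variance between the 3 cultures of a clone, averaged over the 6 clones of a strain, for each of the 100 members in GS115 (horizontal, log scale) and in the strain named above each panel (vertical, log scale), in squared units of log2(TPM + 1). The line marks equal values, and 84, 85 and 81 members lie below it.

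The sets differed in the other strains. In Y-11430 the first set had a median variance of 0.171 and the second set one of 0.333. The values were 0.0737 and 0.230 in Y-48124, and 0.110 and 0.417 in X-33. The second set also had the lower levels there, with library means of 5.14 to 6.46 against 6.37 to 7.54 in the first set. After every library was thinned to 386665 counts, the members' median variance was 0.656 in GS115, 0.263 in Y-11430, 0.158 in Y-48124 and 0.192 in X-33, which is 5.23, 1.84, 1.39 and 1.54 times the median of the genes outside the members.

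In the other strains the members' spread came with the rhGH clones. In rhGH clones the members' median variance was 0.330 in Y-11430, 0.160 in Y-48124 and 0.246 in X-33, and in rG-CSF clones it was 0.0438, 0.0490 and 0.0357. All genes with a mean of 4 moved the same way, with medians of 0.120, 0.0760 and 0.100 in rhGH clones and 0.0356, 0.0378 and 0.0344 in rG-CSF clones. The rhGH libraries of these strains had a median total of 891810 counts and the rG-CSF libraries one of 1413594. The share of depth in this was not tested beyond the thinned values. Those were 2.42, 1.64 and 1.99 times the genes outside the members in rhGH clones and 0.846, 0.837 and 1.03 times in rG-CSF clones.

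The widest scores outside GS115 were in 2 rhGH clones of Y-11430. In clone 8 the score ran from 0.59 to 1.78 and in clone 22 from 0.19 to 1.67, a range of 1.19 and 1.48. In X-33 the widest ranges were 1.01 in rhGH 12 and 1.08 in rhGH 13. In Y-48124 no clone exceeded 0.58. The ranges in GS115 rhGH 12, rhGH 14 and rG-CSF 13 were 3.07, 3.35 and 2.61, where the choice of members by GS115 values favours a wide range.

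Within the other strains the members moved together in part. There each member's clone-centred values were compared with the score of the remaining members, over 54 libraries that share clones and depth. The correlation was above 0 in 49 of the 66 genes of the first set and above 0.5 in 24, where 6.53% of the ranked genes outside the members were above 0.5. It was below 0 in 25 of the 34 genes of the second set and below -0.5 in 10, where 9.62% of the genes outside the members were. In Y-11430 alone 37 genes of the first set were above 0.5 and 14 of the second set were below -0.5, beside 20.5% and 20.8% of the genes outside. In Y-48124 these counts were 11 and 11, beside 6.16% and 14.4% of the genes outside, with a median correlation of 0.08 in the first set. In X-33 they were 16 and 16, beside 10.4% and 19.7%, with a median of 0.18. Y-11430 thus had the highest first-set count of the 3 strains, and also the highest share of genes outside the members above 0.5. In the rG-CSF clones of the 3 strains 5 genes of the first set and 2 of the second set passed these bounds. Of the genes outside the members, 1.34% and 4.399% did. FLO11-BSC1 had a correlation of -0.73 with the score over the 54 libraries. Depth moved with the score in part. The clone-centred score and log2 total count had a correlation of 0.39 over the 54 libraries, 0.46 in rhGH and -0.20 in rG-CSF clones. By strain it was 0.21 in Y-11430, 0.48 in Y-48124 and 0.61 in X-33, and in GS115 it was 0.31, over 18 libraries each. The part of depth in these values was not tested.

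Over the genes outside the members, the difference in spread between GS115 and the other strains was not the same with both products (0.109 between products, exact permutation p = 0.00256). For each clone the median standard deviation of the 3 cultures was taken over 3546 genes with a mean of 4 or more over all libraries. It was 0.214 ± 0.0411 (SD, n = 6 clones) in GS115 and 0.221 ± 0.0674 (SD, n = 18 clones) in the other strains, a difference of -0.00709 (two-sided exact permutation test over clones, p = 0.811, adjusted p = 0.811 over 3 tests). In rhGH clones GS115 had 0.218 ± 0.0561 and the other strains 0.280 ± 0.0395 (exact permutation p = 0.0545, adjusted p = 0.0818), and on log2(CPM + 1), where CPM scales counts to a common total, the difference of -0.0682 passed the threshold before adjustment (exact permutation p = 0.0273). In rG-CSF clones GS115 had 0.210 ± 0.0319 and the other strains 0.162 ± 0.0179 (exact permutation p = 0.0136, adjusted p = 0.0409), and 2 of the 3 GS115 clones were above all 9 others. Leaving out the members removes genes by their GS115 variance and so lowers the GS115 values. With the members among the 3630 genes the differences were -0.00405 over both products, -0.0590 in rhGH clones and 0.0509 in rG-CSF clones (exact permutation p = 0.893, 0.0682 and 0.00455, the last being the smallest that 220 arrangements can give). Without the 3 far cultures the difference over both products was -0.0856 (exact permutation p = 0.00964), a change that leaving out the most distant cultures of GS115 favours. The difference in total counts between products, given above, moves with this result, and its part was tested only by thinning, which gave differences of -0.0353 and 0.0462 in rhGH and rG-CSF clones (exact permutation p = 0.227 and 0.00455).

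The mean levels of the members were compared between strains with edgeR on counts summed over the 3 cultures of a clone. Between GS115 and the other 3 strains 74 of 100 members were called at an adjusted p below 0.05, where 71.7% of the 5043 genes tested were called, and 74.7% of those with a GS115 mean of 4 or more. Of these, 35 were higher in GS115 (38.4% of all genes) and 39 were lower (33.3% of all genes). The share called is close to the background. The median absolute log2 difference was 1.38 in the members and 0.61 over all genes, and since the members were chosen for a wide spread in these GS115 libraries nothing is read from it. The signed medians were -0.11 and 0.07. With limma on log2(TPM + 1), which is not recentred between libraries, the median difference of all genes was 0.38, and 39 members were higher and 37 lower beside 2642 and 1044 of all genes. In the first set, by edgeR, 20 genes were higher and 30 lower in GS115, and in the second set 15 were higher and 9 lower.

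Some GS115 libraries lay outside the range of the other strains in both sets. The mean of the first set was between 6.37 and 7.54 in the 54 libraries of the other strains, and 9 GS115 libraries were below that range and 3 above it. The mean of the second set was between 5.14 and 6.46 there, and 8 GS115 libraries were above that range and 0 below it. The GS115 libraries with a score above 0 thus overlapped the other strains in the second set. The members were chosen and split into sets by GS115 values, and 16 of them had a mean under 4 in every other strain. Set means of GS115 outside the range of the other strains are therefore what the choice favours, and they are given without a test.

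Between Y-11430 and the pair Y-48124 and X-33, a contrast that holds no GS115 library, 6 of 100 members were called, where 5.12% of all genes were. Of these, 5 were higher in Y-11430 (3.31% of all genes) and 1 was lower (1.8% of all genes). The fit estimated the spread over the clones of all strains, GS115 included. The GS115 values that chose the members thus enter the error of this contrast. The median log2 difference was 0.16 in the members and 0.04 over all genes. Leaving out 1 clone gave 1 to 10 members, with 1 without Y-11430 rG-CSF 16 or Y-11430 rhGH 22, so the count depends on single clones.

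Between rG-CSF and rhGH in the other 3 strains 16 of 100 members were called, where 13.6% of all genes were. Of these, 10 were higher with rG-CSF (7.32% of all genes) and 6 were lower (6.25% of all genes). This contrast comes from the same fit, so GS115 clones enter its error too. All but 1 of the called members belonged to the first set, in which 10 were higher and 5 lower. The effect of the product was not called as different between GS115 and the other strains for any member (0 of 100 members and 0% of 5043 genes by edgeR, with 18 members and 9.44% of all genes at an unadjusted p below 0.05).

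Differences between clones were common among the members in strains the rule did not use. Over 54 libraries with each culture as a replicate of its clone, 69 of the 97 members that passed the filter on low counts differed between clones of 1 strain and product, where 45.1% of the 4811 genes tested and 49.3% of those with a GS115 mean of 4 or more did. The first set had 51 of 65 called and the second set 18 of 32. One clone carries much of this count, since without Y-11430 rG-CSF 16 the test called 35 of 98 members, where 10.6% of all genes were called. The rG-CSF transgene of that clone was at 16.06, 16.14 and 16.07. In GS115 the variance between clone means was above the variance between cultures in 31 members, and it was in 57.5% of all ranked genes.

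No shift shared by all cultures of 1 letter was called in the other strains. A shift that differs between strains or products would be missed by this test, and GS115 was not in it. With a term for the letter over the same 54 libraries, 0 of 97 members and 0% of the 4811 genes were called by edgeR, with 6 members and 8.19% of all genes at an unadjusted p below 0.05. DESeq2 called 0 members and 1 of all genes. In GS115 the far cultures had the letters A, C and A.

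A list of 20 genes that the study drew from its glycerol samples was set beside the members. It holds the leading genes of a component that set GS115 apart there, and is no independent evidence of direction. Of the 17 that reached a GS115 mean of 4, 2 were members and 5 were among the 200 genes with the highest variance. In GS115 the correlation with the score was above 0.5 in 4 of the 20 genes and below -0.5 in 5, beside 38.5% and 15.6% of the ranked genes outside the members. Between GS115 and the other strains 14 of the 20 were called, 5 higher and 9 lower, beside 71.7% of all genes. Of these 2 members, FLO11-BSC1 has a symbol and the other has none.

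Of the 8 genes of that list with a symbol, FLO11-BSC1 was a member and YFL040W was near the edge. YFL040W, named after a putative sugar transporter of S. cerevisiae, ranked 107th and was at 9.72, 8.41 and 8.40 in the cultures of rhGH 12 and at 10.23, 10.05 and 8.20 in those of rhGH 14. It followed the score in GS115 with a correlation of 0.92 and had -0.78 with it in the other strains. FRE1, named after a plasma membrane reductase that serves iron and copper uptake, ranked 174th and was at 7.59, 6.43 and 6.33 in rhGH 12 and at 7.57, 7.55 and 6.22 in rhGH 14. Its correlation with the score was 0.85 in GS115 and 0.39 in the other strains. CTR1, named after the high-affinity copper transporter, ranked 738th, with correlations of 0.80 and -0.47. NIT1, named after a nitrilase, ranked 1715th with a variance of 0.0822, a standard deviation of 0.29 between cultures. YDL218W ranked 687th and PDR12, named after a plasma membrane transporter of weak acids, 1762nd, with correlations of -0.08 and 0.33 with the score in GS115, and ZPS1 did not reach a mean of 4. The median rank of the list was 738.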

How the data were processed

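RNA from 72 cultures was sequenced as 3′ digital gene expression libraries, with a short first read and a second read placed in the transcript's 3′ end. The authors quantified reads with Salmon 0.9.1 against 1 transcript per gene with extended 3′ ends plus the transgenes, and used bedtools 2.26.0. Whether molecular identifiers were merged is not given in the sources used here. The deposited tables hold whole-number counts, not normalized, and log2(TPM + 1) values, where the pseudocount is 1.

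The rule used the log2 values, without transgenes. Clone sums of the counts were tested with edgeR 4.0.16 (quasi-likelihood, TMM) in R 4.3.3, with Benjamini-Hochberg adjustment over all genes that passed the filter on low counts. Clone and letter tests used single cultures of the other 3 strains. Spread was tested by exact permutation over clones in Python 3.11.15. Alternatives used DESeq2 1.42.0, limma 3.58.1, other filters, thinned counts and left-out clones. The scripts were tested on simulated data. No pair of libraries of 1 strain and product agreed within sampling noise (lowest chi-square per degree of freedom 2.04 over 288 pairs). Values after ± are standard errors of the edgeR fit on clone sums for log2 differences, and standard deviations over clones for spread. The upper bound given for a gene without counts covers counting error only.

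The members, sets and lists were chosen with earlier results of these data known. Genes named are those the study pairs with a symbol, the member of rank 1, the highest-ranked other member with a correlation above 0.5 with it over clone-centred GS115 values, and the 2 highest-ranked with one below -0.5. The GQ67 identifiers did not match the reference table (0 matched), so the others carry no gene names. Libraries whose column name holds WT were taken as Y-11430.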

Additional observations from a re-analysis of the deposited data

Results flagged for a closer look

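GQ67_05122 in the GS115 culture rG-CSF 13B was at 1.3e-05, that is 0 counts, while the other 8 GS115 rG-CSF cultures were between 3.99 and 7.10. It stands far below them on Dixon's test. The same gene in the X-33 culture rG-CSF 16A was at 1.85 while the other 8 X-33 rG-CSF cultures were at 0. With those tied at 0, any value above 0 would have been singled out, so nothing is read from it. The total count of the GS115 culture rG-CSF 14A, 33003281, stands far above the 1423848 to 5996828 of the other GS115 rG-CSF cultures. Of 62 groups of values tested this way 3 were singled out. Chance alone gives about 1 in 20, a rate that does not hold for values tied at 0.

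The difference in spread between GS115 and the other strains over genes outside the members was not the same with both products. GS115 minus the others was -0.0615 in rhGH clones and 0.0473 in rG-CSF clones, a difference of 0.109 between products (exact permutation of strain labels within each product, p = 0.00256). After thinning it was 0.0815 (exact permutation p = 0.00783).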

How the results depend on the processing

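Of the 100 members, 54 were chosen again from the rG-CSF clones alone, 66 with the median over clones, 51 with a GS115 mean of 6 or more, 29 with no filter on low values and 40 without the 3 far cultures (an alternative chosen after seeing the data). The 4 other alternatives kept 73 to 98, and leaving out 1 clone kept 79 to 91. The difference in spread outside the members turned to 0.00552 (p = 0.856, exact permutation) with a mean of 6 or more, to 0.00543 (p = 0.817, exact permutation) after thinning and to 0.0473 in rG-CSF clones alone, and was -0.0856 without the 3 far cultures. Leaving out 1 clone gave -0.0149 to 0.0050 (exact permutation p = 0.645 to 0.989), with 0.0050 without GS115 rhGH 13. Between Y-11430 and the pair Y-48124 and X-33 the 6 members became 28 with cultures as replicates, 27 with the replicate block, 3 with limma, 2 without the 3 far cultures and 1 to 10 when 1 clone was left out. Over all genes 258 calls became 1407, 1402, 275 and 168 in the same order, and 399 with DESeq2. Between the products in the other strains the 16 members became 39 with cultures as replicates, 39 with the replicate block and 10 to 24 when 1 clone was left out, with 10 without Y-11430 rhGH 8 or X-33 rG-CSF 12. Over all genes 684 calls became 1797 and 1781 with cultures as replicates, without and with the block. Between GS115 and the other strains the members called were 68 to 85 when 1 clone was left out. With limma all genes split into 2642 higher and 1044 lower, against 1934 and 1680 with edgeR. The count of 69 members that differ between clones became 35 to 73 when 1 clone was left out, with 35 without Y-11430 rG-CSF 16. The culture letter called 0 members under every alternative run.

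Whether the culture letter pairs the samples is not settled by these data. In GS115 same-letter cultures of different clones had a mean correlation of 0.0766 (45 pairs, from -0.492 to 0.732). Cultures of different letters there had -0.0436 (90 pairs). In the other strains the means were 0.0109 (459 pairs) and -0.00561 (918 pairs). These correlations were not tested. With the replicate block the GS115 contrast called 80 members and the clone test 69. Cultures of a clone are not independent of it, so counts with cultures as replicates are too high. Totals in the other strains went down to 386665, and the part of depth in the values of the second set there was not tested. The causes of these changes were not tested.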
